A study of Mus musculus with 2 samples.

Results

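The cyclin-dependent kinase (CDK) inhibitors and the D-type cyclins are 10 genes that together set whether a cell leaves G1 for S phase: the Cip/Kip inhibitors Cdkn1a, Cdkn1b and Cdkn1c, the INK4 inhibitors Cdkn2a, Cdkn2b, Cdkn2c and Cdkn2d, and the cyclins Ccnd1, Ccnd2 and Ccnd3. They were taken by name, through all probe sets (groups of short probes against 1 transcript) that the platform annotation gives to exactly 1 of these genes. This gave 22 probe sets, and all 10 genes had at least 1, out of 18194 genes on the array.

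The samples were primary osteoblasts, the bone-forming cells, from the calvaria (skull vault) of CD1 mice aged 7 days. Both cultures had been expanded with 10% serum and then held for 24 h with 0.25% albumin in its place. One then received the vehicle DMSO and the other 2 µM PP1, an inhibitor of c-Src and related tyrosine kinases, for 24 h, and RNA from each went to 1 Affymetrix array. With 1 array per treatment there was no replicate, and the differences are descriptions of these 2 arrays, with no test or p-value. Neither the number of animals behind each culture nor kinase activity is part of the data.

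D-type cyclins are made when growth factors reach a cell. They bind and activate CDK4 and CDK6, which phosphorylate the retinoblastoma protein and so release E2F transcription factors, the activators of S-phase genes. INK4 proteins bind CDK4 and CDK6 and keep the D cyclins off them, whereas Cip/Kip proteins bind whole cyclin-CDK complexes, those of CDK2 above all. In bone these genes are known for the switch between growth of osteoblast precursors and their exit from the cell cycle on maturation. Much of this control acts on the proteins, by phosphorylation and degradation, which an RNA array does not measure.

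All 10 genes were slightly to clearly higher on the PP1 array once both arrays had been scaled to the same trimmed mean, as told by the probe set of each gene with the highest mean log2 signal, called its brightest here. Cdkn1c, which encodes the inhibitor p57, was the only one at least 2-fold higher, at 3.84-fold. Cdkn1b, Ccnd2, Cdkn2a and Cdkn2d followed at 1.44-fold, 1.43-fold, 1.40-fold and 1.36-fold, and Ccnd1 was close to equal at 1.05-fold. These directions are relative to the bulk of genes. As deposited the PP1 array was dimmer as a whole, and there only Cdkn1c had a log2 ratio (PP1 minus DMSO) above 0. With scaling to equal medians, Cdkn2b, Cdkn2c and Ccnd1 fell just under 0, and with a loess fit Ccnd1 did.

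In counts, 1 of 10 member genes was at least 2-fold higher, against 2.97% of the 12111 measured genes, and 0 were at least 2-fold lower, against 1.55%. A gene is called measured when the probe set that represents it was above the floor of 31.7, the median of all non-control signals, on at least 1 array. At 1.5-fold the count was also 1 of 10, against 10.6% of measured genes, which is near the background. All 10 log2 ratios were above 0, as were 51.0% of those of all measured genes. The median was 0.36 for the 10 genes and 0.01 for all measured genes, whose middle range, from the 25th to the 75th percentile, ran from -0.25 to 0.30. In place of a replicate error, the ratios of different probe sets of 1 gene had an SD of 0.41 on the log2 scale over 4745 genes, or 1.33-fold. The ratios of 5 member genes were larger than this SD and those of 5 were within it. Many other genes also passed it. The smallest of those 5 ratios, 0.44 for Cdkn2d, was exceeded by 1980 of the 12111 measured genes. That SD holds error between probe sets and leaves out variation between cultures.

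**Figure D1:**
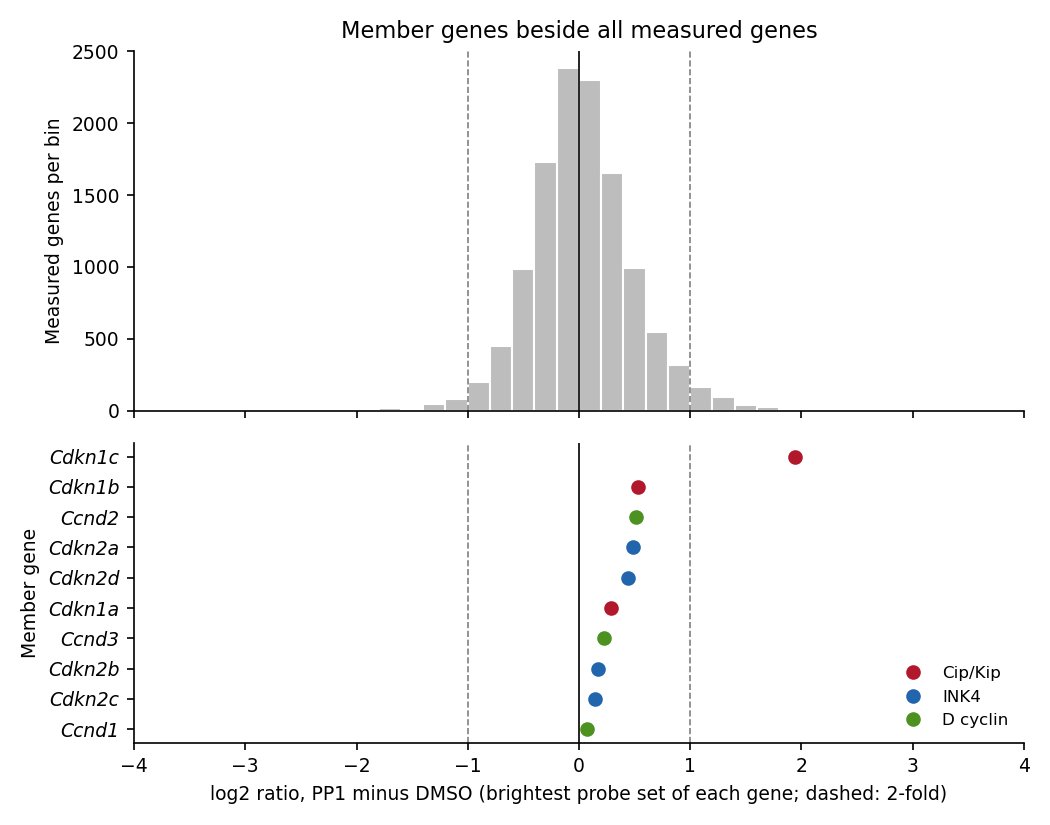
Upper panel: number of measured genes per bin of 0.2 in the log2 ratio, PP1 minus DMSO, over 12111 genes. Lower panel: the same ratio for the 10 member genes, from 0.07 for Ccnd1 to 1.94 for Cdkn1c, after scaling to equal trimmed means; with values as deposited 9 of the 10 lie under 0, with equal medians 3, and with loess 1.

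Of the 22 probe sets, 19 were above the floor on both arrays, 1 of Ccnd3 on the PP1 array only, and 2 (1 each of Cdkn1b and Ccnd3) on neither. Among the 20 measured ones, 19 had a log2 ratio above 0 and 1, of Ccnd2, was below. Probe sets of all genes also leaned above 0. A Ccnd1 probe set at a log2 ratio of 0.00 was at percentile 45.4 of all measured ones that carry 1 gene. Of the 20, 12 were repeat readings of the 3 D cyclins on the same 2 arrays. At least 2-fold higher were 2 of 20, against 4.33% of the 21219 measured probe sets that carry 1 gene, and 0 were at least 2-fold lower, against 1.48%. At 1.5-fold the count was 5 of 20, against 13.9%.

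**Figure D2:**
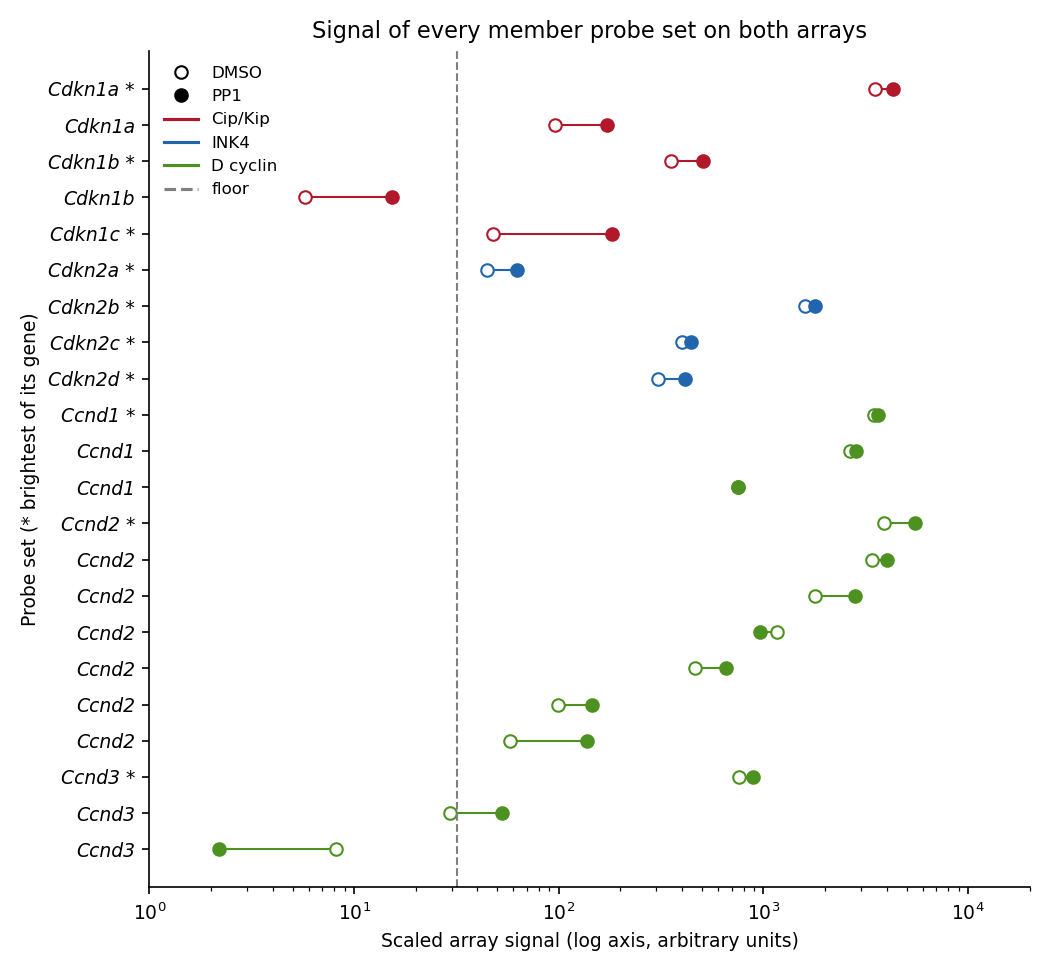
Scaled signal (log axis) of all 22 member probe sets, 1 row each, with the DMSO array as open circles and the PP1 array as filled circles; the dashed line is the floor of 31.7 and an asterisk marks the brightest probe set of a gene. Among the rows above the floor, the Cdkn1c pair lies farthest apart (47.5 and 182.7) and 1 row of Ccnd2 runs the other way (1170 and 959). A row of Ccnd3 under the floor on both arrays also runs the other way (8.18 and 2.19). As deposited every PP1 circle would lie lower by the factor of 1.68.

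The Cip/Kip genes were taken first. Cdkn1a encodes p21, the inhibitor that p53 induces after DNA damage and that also rises in differentiating cells. Its brightest probe set had a signal of 3517 with DMSO and 4294 with PP1, or 1.22-fold higher. Its other probe set read 96.2 and 171.5, or 1.78-fold higher. Both were higher with PP1, with log2 ratios of 0.29 and 0.83. Their SD of 0.39 was close to the 0.41 over all genes with several probe sets. The size for Cdkn1a still depends on which one is read.

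Cdkn1a has more than 1 annotated transcription start, and the bases before 2 of its starts are shown because they differ in the regulators they could bind. Promoter windows came from RefSeq, build GRCm38.p6, each with 250 bases before a start and 50 after it, and only the bases before the start are printed. The first holds a p53 response element, searched as 2 joined 10-base half-sites of the p53 consensus with at most 1 mismatch, in capitals, with its first base 51 bases before the start. Such a match was present in 29 of 32851 windows (0.0883%). The second holds 2 GC boxes (GGGCGG on either strand, present in 35.7% of windows), in capitals.

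Cdkn1a chr17:29090729-29090978 (+ strand): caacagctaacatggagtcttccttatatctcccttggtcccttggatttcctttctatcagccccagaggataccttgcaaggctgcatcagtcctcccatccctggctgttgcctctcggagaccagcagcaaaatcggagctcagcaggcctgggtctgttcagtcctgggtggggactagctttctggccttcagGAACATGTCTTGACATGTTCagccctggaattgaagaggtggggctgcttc

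Cdkn1a chr17:29093519-29093768 (+ strand): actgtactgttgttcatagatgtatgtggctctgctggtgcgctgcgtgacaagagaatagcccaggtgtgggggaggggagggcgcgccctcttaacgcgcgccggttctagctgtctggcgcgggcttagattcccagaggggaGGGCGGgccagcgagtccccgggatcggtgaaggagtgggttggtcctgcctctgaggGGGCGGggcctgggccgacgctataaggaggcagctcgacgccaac

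A match is a description of the letters and shows no binding. No probe sequence was used here, so neither probe set of Cdkn1a can be given to 1 of these starts.

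Cdkn1b encodes p27, the inhibitor that accumulates in resting cells and holds CDK2 inactive. Its measured probe set had signals of 352 with DMSO and 507 with PP1, or 1.44-fold higher. The other probe set was under the floor on both arrays, at 5.76 and 15.3, and gives no ratio.

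Cdkn1c encodes p57, an imprinted inhibitor expressed from the maternal copy and needed for normal bone and cartilage growth in mouse embryos. Its single probe set read 47.5 with DMSO and 182.7 with PP1, a log2 ratio of 1.94. Of the 12111 measured genes, 22 had a higher ratio. The DMSO signal was close to the floor, and with a floor at the 75th percentile of all signals (161.2) a bound of 0.18 on the log2 scale was left. With the arrays as deposited the log2 ratio was 1.19, still more than 2-fold higher. Cdkn1c rests on 1 probe set and 1 array per treatment, and it stands without a second reading in these data.

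**Figure D3:**
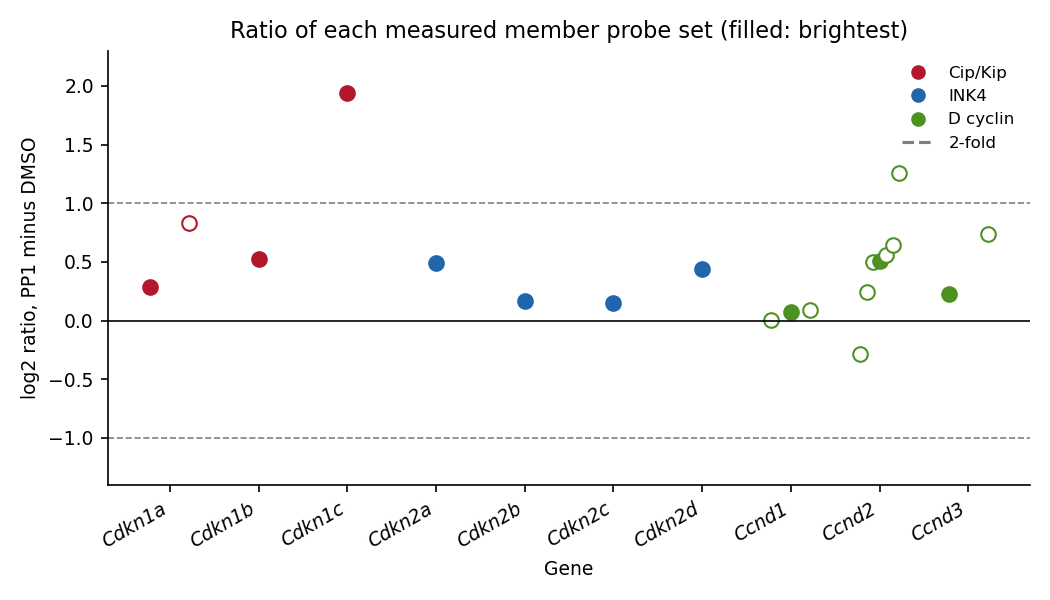
Log2 ratio, PP1 minus DMSO, of the 20 measured member probe sets by gene, with the brightest of each gene filled and dashed lines at 2-fold in either direction. The 7 points of Ccnd2 run from -0.29 to 1.25 and the 3 of Ccnd1 from 0.00 to 0.09; Cdkn1c has 1 point at 1.94, the only one that stays above 0 as a gene's brightest probe set when the arrays are taken as deposited.

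Markers of other cell types were detected in the cultures, and their lists differed between the arrays in both directions. Of all measured genes, 51.0% had a log2 ratio above 0. In bulk RNA, fewer cells of a type and less RNA per cell cannot be told apart. Of 11 skeletal muscle markers, 8 were measured and 7 of these had a log2 ratio above 0, with a median of 0.62. Their summed signal was 1011 with DMSO and 1194 with PP1. The brightest of them, the actin gene Acta1, was the one below 0, at 521 and 426. Desmin (Des) read 39.4 and 105.9, and the muscle regulator Myog read 23.7, under the floor, and 81.8, while creatine kinase (Ckm), Myf5 and Tnni2 were under the floor on both arrays. Of 11 fibroblast and periosteum markers, 10 were measured and 8 were above 0 (median 0.55), with summed signals of 23856 and 34013. Of 5 measured adipocyte markers all were above 0 (median 0.55), with summed signals of 4191 and 7659. The difference in the sum came mainly from Lpl (1614 and 4022), while Adipoq read 236 and 279. Smooth muscle and pericyte markers went the other way, with 7 of 8 measured below 0 (median -0.79) and summed signals of 14763 and 10196. At least 2-fold lower were 4 of them, against 1.55% of all measured genes. Cartilage markers were below 0 in 5 of 6 (median -0.25) and osteoclast markers in 4 of 5 (median -0.14), and endothelial markers were above 0 in 2 of 3 (median 0.39). The part of these cells in the Cdkn1c value was not tested. Osteoblast markers were present: Col1a1 read 7558 with DMSO and 9931 with PP1, Alpl 187.5 and 242.3, and the bone sialoprotein gene Ibsp 159.1 and 37.7. Of 12 listed osteoblast markers, Runx2, Bglap, Bglap2 and Spp1 were not analysed here. Of the other 8, 6 were measured, 4 above 0 and 2 below (median 0.38), and Phex and Dmp1 were under the floor on both arrays. Those below 0 were Ibsp (-2.08) and Sp7 (71.6 and 53.3, -0.43). The summed signals of 24533 and 33296 came mainly from Col1a1, Col1a2 and Sparc. Macrophage markers were measured for 15 of 15 genes, 9 of them above 0 (median 0.06), with summed signals of 15789 and 18289. These sums came mainly from Lyz1 (5742 and 6158) and Lyz2 (4892 and 6297). Single genes ran from -0.76 for C1qb to 1.11 for Mrc1.

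The INK4 genes lay within 1.5-fold of equality, all with a log2 ratio above 0, though those of Cdkn2b and Cdkn2c were under 0 with equal medians and those of all 4 with the arrays as deposited. Cdkn2a, which encodes both p16 and the p53-stabilising protein ARF from separate starts, had a dim signal of 44.4 with DMSO and 62.3 with PP1. Its 1 probe set is marked as shared between transcripts of the gene, and p16 and ARF were not read separately. Cdkn2b encodes p15, an inhibitor known to be induced by TGF-beta and the neighbour of Cdkn2a on chromosome 4. It read 1595 and 1793, or 1.12-fold higher. Cdkn2c (p18) read 401.4 and 444.6, or 1.11-fold higher, and Cdkn2d (p19) read 305.5 and 414.0, or 1.36-fold higher. The ratios of Cdkn2b and Cdkn2c were smaller than the SD between probe sets, and those of Cdkn2a and Cdkn2d just exceeded it. Each of the 4 genes rested on 1 probe set. The median log2 ratio was 0.30 over the INK4 genes and 0.53 over the 3 Cip/Kip genes.

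The bases before the start of Cdkn2b are shown because they hold a cyclic AMP response element (CRE, TGACGTCA on either strand), in capitals, with its first base 46 bases before the start. It was present in 1.79% of all windows and in 1 of the 11 member windows.

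Cdkn2b chr4:89311033-89311282 (- strand): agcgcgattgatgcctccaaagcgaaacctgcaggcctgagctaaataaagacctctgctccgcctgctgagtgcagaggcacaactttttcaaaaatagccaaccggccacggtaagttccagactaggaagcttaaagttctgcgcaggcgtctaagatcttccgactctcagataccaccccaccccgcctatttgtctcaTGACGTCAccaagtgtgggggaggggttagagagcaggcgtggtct

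None of the 3 D cyclins reached 1.5-fold by its brightest probe set, and the ratios of Ccnd1 and Ccnd3 were within the SD between probe sets. Ccnd1, the D cyclin known best as an early target of mitogens, had 3 probe sets well above the floor. They read 3461 and 3645, 2647 and 2817, and 751 and 753 with DMSO and PP1. Their log2 ratios ran from 0.00 to 0.09, all within the SD between probe sets, and the brightest was at -0.01 with loess and at -0.10 with equal medians. Of the 3 D cyclins, Ccnd1 was the one whose signals were nearly equal on both arrays.

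Ccnd2, a D cyclin known as a target of several growth factor and hormone pathways, had 7 probe sets, all above the floor on both arrays. The brightest read 3860 with DMSO and 5502 with PP1, or 1.43-fold higher. The next ones read 3400 and 4026, and 1794 and 2801, or 1.18-fold and 1.56-fold higher. Another, marked as open to cross-hybridisation by its suffix, read 1170 and 959, the only measured member probe set with a lower signal on the PP1 array. The remaining ones read 464 and 656, 98.9 and 145.6, and 57.5 and 137.3, the last of these 2.39-fold higher from a signal near the floor. Thus 6 of 7 probe sets of Ccnd2 were higher with PP1, with a median log2 ratio of 0.51 and an SD of 0.46 among them. The dimmest was the only one past 2-fold. Of those higher, the ones at 1794 and 464 with DMSO are marked as shared by their suffixes. With the arrays as deposited the brightest had a log2 ratio of -0.24.

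Ccnd3, the D cyclin known for its part in maturing blood and muscle cells, read 759 with DMSO and 888 with PP1 by its brightest probe set, or 1.17-fold higher. A second probe set was under the floor with DMSO (29.4) and above it with PP1, so its ratio is a bound of at least 1.67-fold. The third was under the floor on both arrays. The bases before one of the annotated starts of Ccnd3 are shown because they hold a forkhead (FOXO) motif (GTAAACA on either strand, here on the opposite one and so printed as its reverse complement), in capitals, with its first base 243 bases before the start. It was present in 3.65% of all windows and in 1 of the 11 member windows.

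Ccnd3 chr17:47504801-47505050 (+ strand): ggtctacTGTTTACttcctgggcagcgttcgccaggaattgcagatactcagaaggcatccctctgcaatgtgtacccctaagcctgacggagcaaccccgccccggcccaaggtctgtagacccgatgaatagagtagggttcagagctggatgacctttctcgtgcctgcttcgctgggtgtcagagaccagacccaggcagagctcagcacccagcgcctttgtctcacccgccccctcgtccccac

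Promoter windows were found for 7 of the 10 genes, 11 windows in all, and Cdkn1c, Ccnd1 and Ccnd2 had no entry. GC boxes were present in 9 of the 11 windows and in 35.7% of all windows. The CCAAT box (CCAAT on either strand) was in 5 of 11 and in 37.4% of all. The Myc E-box (CACGTG) was in 1 of 11, a window of Cdkn2c, and in 7.15% of all, while TATAAA and the AP-1 motif TGANTCA were in 0 of 11, against 13.6% and 7.81%. The GC box may overlap other GC-rich motifs that were not searched.

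The ratios of all genes differed by DMSO signal. That signal also enters the ratio, and how far the sorting itself sets the shares below was not tested. Of the 1519 measured genes brighter than 1000 with DMSO, 39.2% had a log2 ratio above 0 (median -0.08). The 4 member genes in that class, Cdkn1a, Cdkn2b, Ccnd1 and Ccnd2, were all above 0, with a median of 0.23. Among the 10592 genes at or below 1000 the share was 52.7% (median 0.03), and the 6 other members were all above 0 with a median of 0.46.

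The genes that these proteins act on or through were spread to both sides of 0. For the counts in the lists below, the shares over all measured genes were 51.0% above 0, and at 2-fold 2.97% higher and 1.55% lower. Of the 20 CDK, pocket protein and E2F genes, all measured, 8 had a log2 ratio above 0 and 12 below, with a median of -0.13 that turned to 0.09 with the median over the probe sets of each gene. The list holds 5 CDK genes, of which Cdk1 was near equal at 1460 and 1421 (-0.04). Cdk4, the partner of the D cyclins, read 2333 with DMSO and 2127 with PP1, and its 3 probe sets ran from -0.20 to -0.12. Cdk6 read 505 and 453 by its brightest probe set (-0.16), though its other one gave 1.22. Cdk2, the main target of the Cip/Kip inhibitors, read 191 and 133 (-0.52), and Cdk7, the kinase that activates the others, read 679 and 397 (-0.77), with 5 probe sets from -0.77 to 0.93. The pocket protein gene Rb1 was near equal at 602 and 618. Rbl2, which encodes p130, the pocket protein of resting cells, read 151 and 271 (0.84, and 1.40 by its other probe set). E2f1 read 106 and 244, the only gene of the list past 2-fold, and its other probe set gave 0.48. E2f3 was lower, at 269 and 172 (-0.65).

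Genes downstream of E2F were spread around 0. Of 24 late G1, S and M phase genes, not all of them analysed here, 21 were measured, 11 above 0 and 10 below, with a median of 0.01 and 0 past 2-fold in either direction. Cyclin E1 (Ccne1) read 421 and 461 (0.13), and Ccne2 read 254 and 239 (-0.09). The largest ratios were those of the mitotic kinase Plk1 (252 and 414, 0.72) and the helicase subunit Mcm3 (495 and 313, -0.66), whose 5 probe sets went both ways, up to 0.62. Another subunit, Mcm4, was at 0.46 and the licensing factor Cdt1 at -0.42.

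Among ubiquitin ligase and turnover factors of these proteins, 18 of 19 genes were measured, with 5 above 0 and 13 below (median -0.15) and 0 past 2-fold. The F-box gene Fbxo4, described as a factor in D cyclin turnover, read 162 and 86.2 (-0.91). Skp2, the F-box protein that marks p27 for degradation, read 248 and 200 (-0.31), and its 6 probe sets ran from -0.44 to 0.52. Cul1, the scaffold of the same ligase, was at -0.51, and Fbxw7, which marks cyclin E, at -0.63. On the other side, Rnf123, a ligase subunit that acts on p27, was at 0.55, and Ambra1, which directs D cyclins to degradation, at 0.51.

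**Figure D4:**
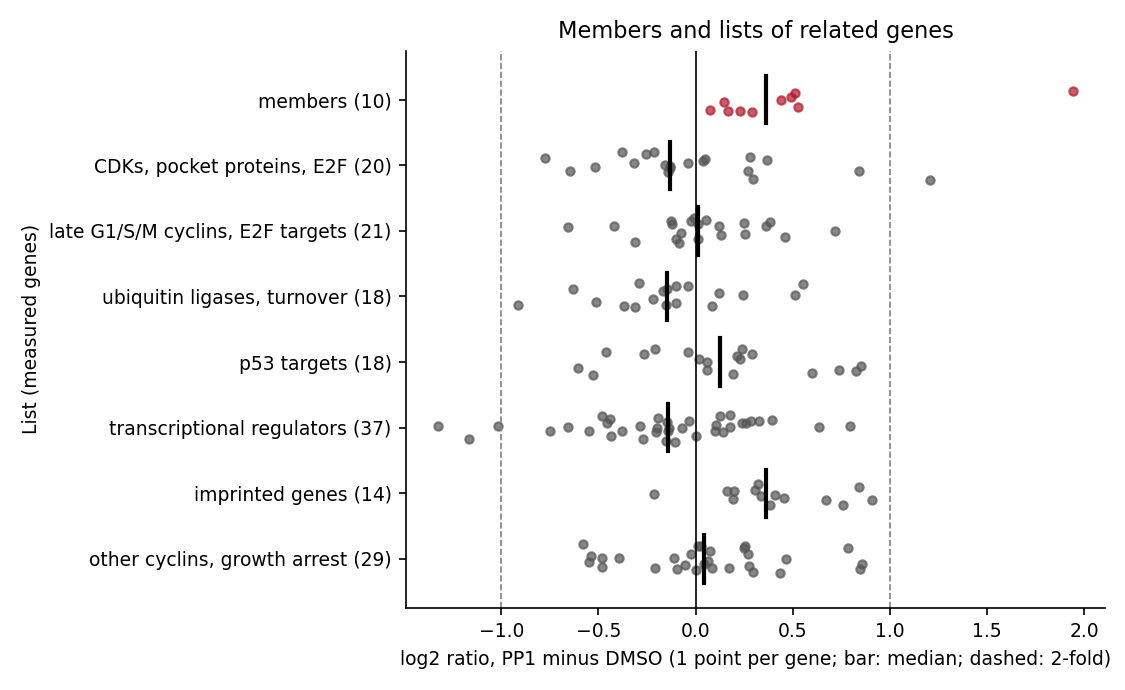
Log2 ratio, PP1 minus DMSO, of the measured genes of each list (1 point per gene, position within a row random, bar at the median, dashed lines at 2-fold) with the 10 members in the top row. The medians run from -0.15 to 0.36, those of the members and of the imprinted genes both at 0.36; as deposited the median of all genes shifts by -0.71.

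The p53 list, from which Cdkn1a was left out, had 18 of 20 genes measured (Trp53 and Bax were not analysed here), 12 above 0 and 6 below, with a median of 0.13. None was past 2-fold. The sestrin Sesn1, a stress response gene that FOXO factors also drive, read 313 and 564 (0.85), with 3 probe sets from 0.69 to 1.31. Btg2, an antiproliferative gene, was at 0.82 by its brightest probe set and -0.32 by the other, and Phlda3, an AKT inhibitor, at 0.74. Mdm2, the ligase that degrades p53, was at 0.23, and the kinase Plk2 at -0.61.

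Of 38 transcriptional regulators of the 10 genes, 37 were measured, 14 above 0 and 23 below (median -0.14). Against 1.55% of all measured genes, 3 were at least 2-fold lower. These were the Notch target repressors Hey1 (139 and 55.4, -1.33) and Hes1 (321 and 143, -1.17), of which Hes1 is known to repress Cdkn1b, and Myc (493 and 244, -1.02), a known repressor of Cdkn1a and Cdkn2b. Each of the 3 had 1 measured probe set. Tcf7l2, a partner of beta-catenin, was at 0.80 (3 probe sets from 0.36). Among the FOXO factors, which induce Cdkn1b and repress D cyclins, Foxo4 was at 0.64 by its brightest probe set and -0.09 by the other, Foxo3 at 0.26 and Foxo1 at -0.45. Smad3, through which TGF-beta induces Cdkn2b, was at -0.20 by its brightest probe set, and its 3 probe sets ran up to 0.85. The part of any of these regulators in the members' values was not tested.

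Cdkn1c was set beside other imprinted genes, since many of these are co-expressed in growing tissues. Of 23 listed, H19, Peg13, Rtl1 and Dio3 were not analysed here, and 14 were measured. Of these, 13 had a log2 ratio above 0, against 51.0% of all measured genes, and 1 was below (Meg3). The median was 0.36 and 0 were past 2-fold. The list was chosen with earlier results of these data known. The growth regulator Dlk1 read 498 and 932 (0.91), and Mest read 1391 and 2214 (0.67). The transporter gene Slc38a4 was at 0.76 and Nnat at 0.84, the latter a bound from a DMSO signal under the floor. Plagl1, an imprinted transcription factor described as an activator of Cdkn1c, read 3775 and 4218 (0.16) by its brightest probe set but 2.70 by its other one. Igf2 read 4674 and 5842 (0.32) by its brightest probe set and -0.99 by the other. Slc22a18, the gene next to Cdkn1c and part of the same imprinted domain, read 40.7 and 71.9 (0.82) from a dim signal. Cdkn1c at 1.94 lay above all 14 measured genes of the list as read by their brightest probe sets.

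Of 30 other cyclins and growth arrest genes, 29 were measured (Btg3 was not analysed here), 18 above 0 and 11 below, with a median of 0.04 and 0 past 2-fold. Gas1, named for its rise in growth-arrested cells, read 2022 and 3631 (0.84, and 1.24 by its other probe set), and Gas6, a ligand of receptor tyrosine kinases also found in arrested cells, read 2549 and 4388 (0.78). Cyclin K (Ccnk) was at 0.86 from a signal of 94.0, cyclin C (Ccnc) at -0.55, and the antiproliferative gene Tob2 at -0.58, though its 5 probe sets ran up to 1.05.

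Control probe sets at the 3' and 5' ends of a transcript report on RNA integrity. The log2 of 3' over 5' signal was 0.70 with DMSO and 0.19 with PP1 for Gapdh, 1.80 and 1.46 for pyruvate carboxylase, and 0.55 and 0.69 for beta-actin. Its part in the differences between probe sets of 1 gene was not tested.

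**Figure D5:**
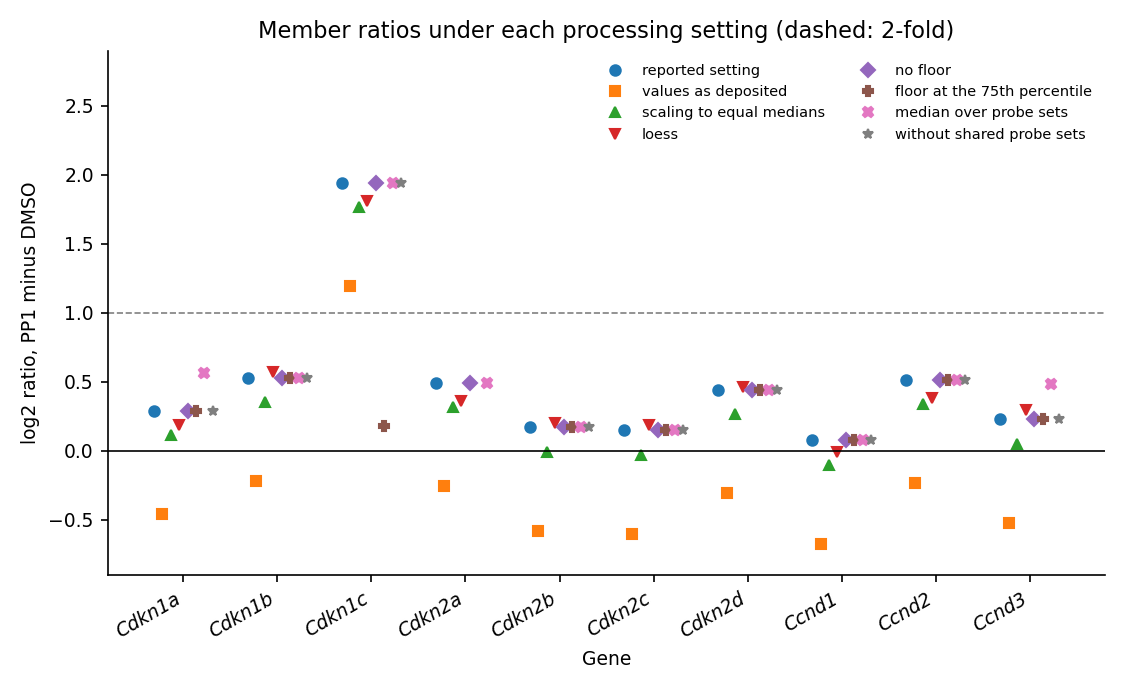
Log2 ratio, PP1 minus DMSO, of the 10 member genes under the reported setting and 7 alternatives (symbols), with a dashed line at 2-fold; a missing symbol means that the gene was not measured in that setting. With values as deposited all genes but Cdkn1c lie under 0, with equal medians Cdkn2b, Cdkn2c and Ccnd1 do, and with loess Ccnd1; a floor at the 75th percentile brings Cdkn1c to 0.18.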

How the data were processed

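Expression was measured on 2 arrays, DMSO and PP1. The deposited values are a linear signal intensity per probe set, made by the authors with MAS5 per the submitters' processing notes; neither a version nor a target scale is given in the sources used here. Of 45037 non-control probe sets, the platform annotation gave 34945 exactly 1 gene; symbols were updated by gene identifier through a RefSeq table (GRCm38.p6), which matched 34741. The PP1 signals were multiplied by 1.68 to equal the DMSO mean after trimming 2% at each end. Signals under the floor of 31.7 were set to it before log2, so that a ratio resting on the floor is a bound. A gene was represented by its brightest probe set (highest mean log2 before the floor). The number of arrays limits the precision. The members and all lists were chosen with earlier results of these data known. Named are the 10 members and, per list, up to 4 genes by size of ratio plus a few chosen by role. Of the latter, Trp53 and H19 were not analysed here. Cdk1, Ccne2, Ccnc, Cul1, Foxo4, Meg3, Slc22a18 and the cell type markers were named after their values were seen. No likeness of pattern was computed, since there are only 2 arrays. Alternatives were other scalings (as deposited, equal medians, loess with a span of 0.3), other floors, a median of all probe sets per gene, dropping probe sets marked as shared, and other fold thresholds. The steps were tested on simulated data, with large changes planted in brighter genes only. That test does not cover dim signals such as those of Cdkn1c and Cdkn2a, or small ratios. Python 3.11.15, pandas 2.3.3 and statsmodels 0.14.6 were used.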

Additional observations from a re-analysis of the deposited data

How the results depend on the processing

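The values as deposited shifted the median log2 ratio of all measured genes by -0.71, and scaling to equal medians by -0.17. Relative to that shift, all measured members were above 0 under each of the 7 alternatives that change the ratios, 9 genes with the 75th percentile floor or without shared probe sets, which leave out Cdkn2a, and 10 otherwise. Taking off the shift largely undoes a change of scale, so the values as deposited and equal medians could hardly differ from the reported setting here. Without it, 1 of 10 members was above 0 as deposited, 7 with equal medians and 9 with loess. Of 68 member gene values under alternatives, taken relative to the shift of each setting, 67 moved by less than the SD between probe sets. The exception was Cdkn1c, at 0.23 relative to the bulk with the floor at the 75th percentile, where the DMSO signal was under the floor; there the count of genes at least 2-fold higher went from 1 to 0 and that of probe sets from 2 to 0. Probe sets at least 2-fold higher numbered 1 and those at least 2-fold lower 1 with values as deposited. The probe set count was 5 at 1.5-fold and 1 at 3-fold. Relative to the shift of each setting, no list median moved by more than the SD between probe sets. That of the CDK, pocket protein and E2F list went as high as 0.04, or 0.09 without taking off the shift. Dim signals limit Cdkn1c and Cdkn2a the most.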
